A study of Homo sapiens with 38 samples.

Results

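Broad peaks of the transcription factor Sp1 were described in a human osteosarcoma cell line, U2OS. The broad peaks are those of at least 1800 bp in the list of FLAG-tagged wild-type Sp1 (Sp1 WT), which was made by CUT&RUN with mouse anti-FLAG. CUT&RUN cuts DNA next to an antibody-bound protein with a tethered nuclease and sequences the released fragments. The members were chosen by their width in this list, end minus start, and 487 of its 5151 peaks (9.45%, 95% Wilson interval 8.69 to 10.3%) met the limit. Their width, rank and strength in the Sp1 WT list are therefore a description. The other peak lists come from libraries that the choice did not use.

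The series held 38 libraries, 2 for each of 19 combinations of cell line and antibody, and each combination gave 1 peak list merged from its 2 replicates. Every line was built on 1 clone of U2OS cells with the genotype V5-Halo-SP1, an endogenous knock-in at all copies of the gene, so anti-V5 reads endogenous Sp1 in every line, and every group had 1 µg/ml doxycycline for 36 h before cell sorting and for 36 h after it. The parental line (CTRL) carried no transgene. The other lines carried a doxycycline-inducible transgene at the AAVS1 locus with a SNAPf tag, a FLAG tag and a nuclear localization signal. These transgenes were wild-type Sp1, the Sp1 DNA binding domain alone (Sp1 DBD), that domain behind the disordered region of EWS (the EWS chimera), the Sp1 activation domain on LacI (Sp1 IDR-LacI) or on the CTCF DNA binding domain (Sp1 IDR-CTCF DBD), and CTCF DBD and LacI alone. Another was the Sp1 DBD Mutant, a disease-associated variant that keeps the N-terminal disordered region and 1 zinc finger. SNAPf-NLS was the control. The Sp1 DBD and EWS chimera lists came from mouse anti-FLAG. The 8 V5 lists came from rabbit and mouse anti-V5 in the CTRL, Sp1 WT, Sp1 IDR-LacI and Sp1 IDR-CTCF DBD lines. A list has no replicates of its own, so no comparison between lists was tested. The 95% Wilson intervals beside shares of peaks cover only counting error.

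Sp1 is a zinc finger activator that binds the GC box, a short GC-rich element common in promoters within CpG islands, where DNA is rich in CpG and transcription often begins at several nearby places. Its zinc fingers read the element, and its glutamine-rich disordered regions contact other factors and other Sp1 molecules. Many GC-box promoters drive housekeeping genes, and many are shared by a pair of genes that are transcribed in opposite directions.

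The following sequences show a run of GC boxes outside exons, not always the densest, in 6 broad peaks. The peaks were picked for their width, their number of boxes or their splitting in other lists. The sequences are 200 bases each from the plus strand of the hg38 genome, 5′ to 3′, and the capitals mark GGGCGG or its reverse complement CCGCCC, so that adjoining capitals are overlapping or touching boxes. The first lies outside annotated genes, nearest to ENSG00000254744, in the peak with the most boxes (84).
near ENSG00000254744, chr15:99926374-99926573: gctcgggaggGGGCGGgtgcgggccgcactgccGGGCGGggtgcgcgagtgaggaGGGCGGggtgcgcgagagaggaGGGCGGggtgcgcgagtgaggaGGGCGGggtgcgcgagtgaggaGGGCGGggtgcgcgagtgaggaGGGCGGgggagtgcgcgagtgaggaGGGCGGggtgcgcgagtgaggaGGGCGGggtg
The second holds 14 boxes in an intron of DNPEP, which encodes an aspartyl aminopeptidase, and many of its boxes overlap.
DNPEP, chr2:219387971-219388170: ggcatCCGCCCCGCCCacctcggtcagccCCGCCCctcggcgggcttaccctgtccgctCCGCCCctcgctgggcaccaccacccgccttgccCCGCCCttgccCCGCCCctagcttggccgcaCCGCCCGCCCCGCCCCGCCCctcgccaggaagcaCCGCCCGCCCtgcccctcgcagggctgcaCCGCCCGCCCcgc
The third holds 6 boxes in an intron of SIN3A, the widest member.
SIN3A, chr15:75455030-75455229: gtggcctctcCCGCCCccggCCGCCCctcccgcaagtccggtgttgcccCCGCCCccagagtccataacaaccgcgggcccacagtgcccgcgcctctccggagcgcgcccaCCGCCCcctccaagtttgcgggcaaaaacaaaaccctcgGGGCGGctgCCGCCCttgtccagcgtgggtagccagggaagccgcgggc
The last sequences come from peaks that came apart in the other lists, with 4 boxes in an intron of PRR12, 2 outside annotated genes between RRAS and SCAF1, and 3 in introns of CFL1 and MUS81.
NOSIP/PRR12, chr19:49593444-49593643: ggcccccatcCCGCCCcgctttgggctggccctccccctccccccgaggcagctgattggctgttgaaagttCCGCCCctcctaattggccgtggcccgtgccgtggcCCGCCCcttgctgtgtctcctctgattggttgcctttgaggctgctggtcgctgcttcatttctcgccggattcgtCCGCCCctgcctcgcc
RRAS/SCAF1, chr19:49640374-49640573: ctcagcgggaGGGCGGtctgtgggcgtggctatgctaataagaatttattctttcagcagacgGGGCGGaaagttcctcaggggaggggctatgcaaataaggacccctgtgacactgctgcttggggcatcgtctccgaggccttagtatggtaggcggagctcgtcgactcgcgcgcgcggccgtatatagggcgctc
CFL1/MUS81, chr11:65859427-65859626: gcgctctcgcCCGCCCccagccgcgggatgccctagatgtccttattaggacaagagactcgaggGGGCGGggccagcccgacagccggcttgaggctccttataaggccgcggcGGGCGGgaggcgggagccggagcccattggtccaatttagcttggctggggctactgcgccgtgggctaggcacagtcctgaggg
The boxes of DNPEP and of the locus near ENSG00000254744 recurred at short intervals, whereas those of the other windows were fewer and farther apart.

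The members covered 1209653 bp of the 5543389 bp in the list. Their widths ran from 1800 to 6240 bp with a median of 2241 bp, against a median of 886 bp for the 4664 other Sp1 WT peaks. Of them, 343 were at least 2000 bp wide, 95 at least 3000 bp, 23 at least 4000 bp and 6 at least 5000 bp. Members just inside the limit included IFT25/LRRC42 (1800 bp, rank 351), a peak near GRIK4 (1802 bp, rank 1168) and ATF4 (1803 bp, rank 2422). Just outside it lay HES1 (1797 bp, rank 2933), MIEF2 (1796 bp, rank 1532), UBE2R2 (1796 bp, rank 1892) and MAF1/SHARPIN (1795 bp, rank 3261). The limit thus cut through a continuous range of widths.

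Broad peaks were found throughout the ranking, which orders peaks by their −log10 p-value. This value, the strength, equals that of the weaker replicate peak in all 5151 peaks. Ranks ran from 3 to 5146 with a median of 1157, against 2575 for all Sp1 WT peaks. Of the members, 259 (53.2%, 48.7 to 57.6%) were in the strongest 25% of the list, 1287 peaks, and 11 were among its 20 highest ranked peaks. The median −log10 p-value was 29.8 (8.20 to 132), against 17.8 for the other peaks. Because width and strength go together, comparisons are also given within the strongest 25%.

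The 2 replicates did not give the same widths. The lists were merged by the irreproducible discovery rate (IDR), which scores replicate peaks by how well their ranks match. It keeps both replicate peaks, but which labelled replicate came first is not given in the sources used here. The first replicate peak had a median of 1884 bp (235 to 5915 bp) and the second a median of 2218 bp (1420 to 6240 bp). The second was the wider in 439 members. Both reached 1800 bp in 260 members, only the second in 204, only the first in 12 and neither in 11. In 144 members the merged peak, whose width chose the members, was wider than both replicate peaks. One of them was IFT25/LRRC42, with replicate peaks of 1579 and 1586 bp. The second replicate peak was also the stronger, with a median −log10 p-value of 55.2 against 29.9, and the first was the weaker in 473 members. The part of this difference in strength in the widths was not tested.

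**Figure D1:**
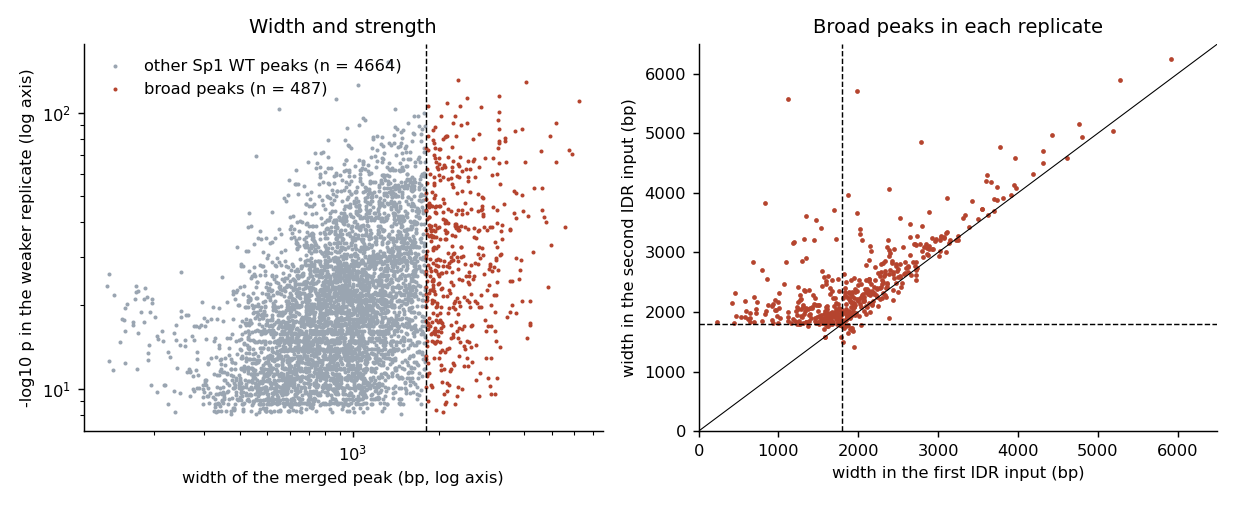
Left, the width of each Sp1 WT peak (bp, log axis) against its −log10 p-value in the weaker replicate (log axis), with members in red, the other peaks in grey and the limit as a dashed line. Right, the width of each member (bp) in the first and the second replicate peak, with equal widths on the solid line and the limits dashed; 439 members lie above the solid line, and a group in the upper left is narrow in the first replicate alone.

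The widest member, 6240 bp at chr15:75450207-75456446, ran from upstream of SIN3A, which encodes a scaffold of histone deacetylase corepressor complexes, into its introns. Its replicate peaks were 5915 and 6240 bp wide, its rank was 9, and it held 4 separate starts and 41 GC boxes. The next, 5900 bp at chr1:154970487-154976386, held starts of SHC1, an adaptor of receptor tyrosine kinases, and CKS1B, a subunit of cyclin-dependent kinases, on opposite strands (replicate peaks 5274 and 5900 bp). The replicates were also close at MTMR4, a phosphoinositide phosphatase gene (5186 and 5036 bp), and at NAB2/NEMP1, where NAB2 is a corepressor of EGR factors (4315 and 4711 bp). They were not close at ZNF846, a zinc finger gene (1990 and 5715 bp), nor at the peak near TRAPPC9 (1123 and 5575 bp). For the last 2 the width of over 5000 bp rested on 1 replicate. The 12 widest peaks also included KIFC2/TMEM276/ZFTRAF1 with ENSG00000291316 (5159 bp), MPV17L2 (4849 bp), SOX12 (4775 bp) and NOSIP/PRR12 (4626 bp). Of these 12 peaks 5 were on chromosome 19.

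Broad peaks were promoter peaks for the most part. An annotated GENCODE transcription start lay inside 433 of 487 (88.9%), against 79.6% of all Sp1 WT peaks, and a start of a protein-coding gene inside 406 (83.4%), against 73.6%. A start of a long noncoding RNA gene lay inside 138 (28.3%), against 20.5%. In 24 (4.93%), against 5.3%, such a start came without a protein-coding one. In all, 686 genes had a start in a member, of which 516 were protein coding, 150 long noncoding and 20 of other kinds. The remaining 54 members held no annotated start. Of the 487 members 480 lay on chromosomes 1 to 22 and X, and the others lay on sequences without annotation, so they could not hold one. The median distance from summit to nearest start was 144 bp, close to the 127 bp of the other peaks.

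Most members held several separate starts, counted per strand after joining starts within 100 bp. There were 2 or more in 355 (72.9%, 68.8 to 76.7%), against 46.3% of all Sp1 WT peaks, and 5 or more in 83 (17%), against 4.19%. Within the strongest 25% the shares were 77.2% of members and 53.9% of the other peaks. Starts lay on both strands in 201 (41.3%), against 26.8%, and protein-coding starts on both strands in 94 (19.3%), against 11.1%. At least 2 protein-coding genes started inside 110 (22.6%), against 13.1%. Within the strongest 25% that share was 22.4% of members and 18.4% of the other peaks. A longer window holds more starts whatever it is: per 1000 bp, the members held 1.11 separate starts and the other peaks 1.66. If only the start of each gene was counted and not of each transcript, 37.8% of the members held 2 or more, against 22.8% of all Sp1 WT peaks.

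The most starts, 11, lay in a peak of 4180 bp at chr11:65856855-65861034 over CFL1, the gene of the actin-severing protein cofilin, and MUS81, a DNA structure-specific nuclease gene. Its rank was only 2826, with a −log10 p-value of 17.3 in the first replicate peak and 58.0 in the second. The peaks with 9 starts included those over KIFC2/TMEM276/ZFTRAF1 and over BCL2L12/IRF3 (2075 bp), where IRF3 is an interferon regulatory factor. Among the 7 peaks with 8 starts was that over PSME2/RNF31 (3233 bp), a proteasome activator gene and a ubiquitin ligase gene.

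The extent to either side of the start was compared in peaks with 1 separate start, since further starts move the outermost one upstream. This restriction was chosen after seeing the data. In the 78 such members the median reach was 1129 bp downstream of the start and 1074 bp upstream, and 41 (52.6%, 41.6 to 63.3%) reached farther downstream. In the 1634 other peaks of this kind the medians were 282 and 504 bp, and 30.7% (28.5 to 33.0%) reached farther downstream. In the strongest 25% the other peaks gave 27.1% (22.5 to 32.2%). When all 232 members with starts on 1 strand were measured from their most upstream start, 162 (69.8%, 63.6 to 75.4%) reached farther downstream, against 45.2% (43.3 to 47.2%) of 2483 other peaks. The reach on either side adds up to the width by which members were chosen.

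GC boxes, the letters GGGCGG on either strand with overlapping matches counted, were present in 481 of 487 members (98.8%), against 92.6% of all Sp1 WT peaks. The longer form GGGGCGGGG was present in 386 (79.3%), against 57%. The members held 5534 boxes, with a median of 10 per peak (0 to 84) against 4 in the other peaks and 6 in the other peaks of the strongest 25%. At least 10 boxes were present in 278 members (57.1%), against 16.2%, and in 66.4% against 22.3% within the strongest 25%. Per 1000 bp the order turned round, with a median of 4.26 boxes in members, 4.66 in the other peaks and 5.04 in the other peaks of the strongest 25%. The median distance from the first to the last box was 1527 bp in members and 357 bp in the other peaks, a span that the width limits. As a share of the width its median was 69.6% in members, 42.3% in the other peaks and 51.4% in the other peaks of the strongest 25%. This share also rises with the number of boxes, so its order does not show how evenly the boxes are spread. GC content was nearly alike at 62.6% and 63.3% (medians). The observed to expected ratio of CpG had a median of 0.66 in members and 0.75 in the other peaks.

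**Figure D2:**
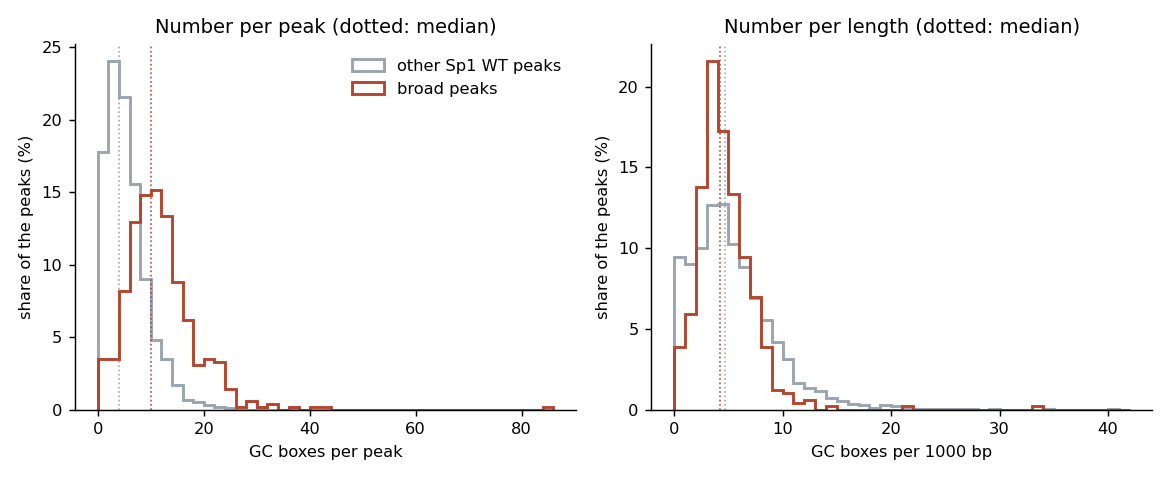
The share of peaks (%) by the number of GC boxes per peak on the left and per 1000 bp on the right, with members in red (n = 487), other Sp1 WT peaks in grey (n = 4664) and medians dotted. Members lie to the right on the left panel (median 10 against 4) and slightly to the left on the right panel (median 4.26 against 4.66).

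The peak near ENSG00000254744 stood apart with 84 boxes in 2544 bp, 33.0 per 1000 bp, and its summit lay 42089 bp from the nearest start. Every 31-base word around its summit has further copies in hg38, within the peak or elsewhere, and how reads were placed there was not examined. DNPEP held 42 boxes in 1940 bp and SIN3A 41 in 6240 bp. CASP9/DNAJC16, a caspase gene and a gene of the DnaJ family, held 37 in 3255 bp, and EOLA2 and ZNF846 held 33 each. At the other end were CLPTM1L, with 1 box in 3249 bp at rank 6, a peak near GALNT9 with 1 box in 4323 bp, and ID3, an inhibitor of bHLH factors, with 1 box in 2517 bp. Of the 31-base words in the peak, 56.3% at CLPTM1L, 60.6% near GALNT9 and 0% at ID3 occur more than once in hg38. Around the summit near GALNT9 the share was 0%. The 6 members with no box held no annotated start, and no match says only that these letters are not in the peak.

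Gene classes were counted by protein-coding starts inside the peaks, except for small nucleolar RNA genes, against the same share over all Sp1 WT peaks. Each class is small, and its count is a description. The SP and KLF factors, which bind GC-rich elements themselves, had 4 members (KLF13, KLF10, SP4 and SP3, 0.821% of members against 0.233%), of the 12 Sp1 WT peaks over the class. Their widths were 3754, 3297, 2227 and 2207 bp. Immediate early and stress genes had 8 (1.64% against 0.563%), which were KLF10, IER2, MYC, ID3, CEBPB, HSPA1A, NR4A1 and ATF4. Among these, IER2/STX10 was 3088 bp wide and MYC 2602 bp, but the rank of MYC was only 3568. Chromatin regulators had 6 (1.23% against 0.757%). They were KDM6B (4031 bp), a histone H3 lysine 27 demethylase gene, 2 peaks at CHD4 (3968 and 3083 bp), a nucleosome remodeller gene, BRD2 (2750 bp), KDM3A (2415 bp) and HDAC3 with RELL2 (1969 bp). Cell cycle and replication genes had 3 (0.616% against 0.485%), which were CDC20, ORC6 and MCM7. Homeobox genes had 2 (TGIF1 and SIX5, 0.411% against 0.155%).

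Other classes were at or below their background. C2H2 zinc finger genes had 13 (2.67% against 2.93%), with ZNF846 and GLI1 the widest, and mitochondrial ribosomal protein genes had 1, MRPL2 (0.205% against 0.466%). Cytosolic ribosomal protein genes had 0 of 487, which allows a share of up to 0.616%, against 18 peaks (0.349%) in the list, and replication-dependent histone genes (0.0777% of all peaks) and small nucleolar RNA genes (0.0388%) also had 0. At these shares the absence was not distinguishable from the background. In all, 32 members held a start of any class.

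Chromosome 19 held 77 members (15.8%, 12.8 to 19.3%), against 9.53% of all Sp1 WT peaks. In the strongest 25% it held 20.1% of members and 11.6% of the other peaks. Within the megabase from 49 Mb on this chromosome, 14 of the 23 Sp1 WT peaks were broad. They included peaks over CGB7, PPFIA3, TRPM4, DKKL1/TEAD2, SLC17A7, ALDH16A1/PIH1D1, NOSIP/PRR12, RRAS/SCAF1, BCL2L12/IRF3 and PRMT1, with more than 1 peak at PPFIA3. No other megabase held more than 6. Another Sp1 WT peak lay within 5000 bp of 54 members (11.1%, 8.60 to 14.2%) and of 6.73% (6.05 to 7.49%) of the other peaks. Another member lay that near to 14 members. The CHD4 pair was 1122 bp apart and the ZNF846 pair 305 bp apart.

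Repeated sequence, meaning that at least 50% of 31-base words around the summit occur more than once in hg38, marked 37 members (7.60%), against 6.85%. Among them were copies of the FAM72 and SRGAP2 genes on chromosome 1: FAM72B/SRGAP2C (rank 3, 2334 bp), FAM72D/SRGAP2B (rank 12, 2386 bp) and FAM72C (rank 19, 2279 bp). Another count, which can overlap with this one, took words of the 45S ribosomal RNA gene, which is present in many copies. By it, 8 members (1.64%), against 0.194%, held mostly such words. They were 1833 to 2362 bp wide in Sp1 WT, whereas 3 Sp1 DBD peaks over this sequence were 8077, 7638 and 6739 bp wide. How reads were placed among such copies was not examined.

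Matches in the other lists, peaks sharing at least 1 bp, made up a higher share of broad peaks than of the rest. In the Sp1 DBD list of 3277 peaks, matches were found for 337 members (69.2%, 65.0 to 73.1%), against 48.7% of all and 46.5% of the other Sp1 WT peaks. The EWS chimera list, with 2535 peaks, matched 293 (60.2%, 55.8 to 64.4%), against 35.1% and 32.5%. At an IDR of at most 0.01 in the EWS chimera list the share fell to 30.0% of members and 12.9% of all peaks. Within the strongest 25% the gap closed, with 78.4% (73.0 to 83.0%) of members and 80.9% (78.4 to 83.2%) of the other peaks in the Sp1 DBD list. For the EWS chimera the shares there were 71.0% (65.2 to 76.2%) and 64.7% (61.7 to 67.6%), whose intervals overlap.

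A wide peak is more easily overlapped, so matches were also counted by summit. A limit of 200 bp is in turn harder to meet in a wide peak, where summits have more room to lie apart. Between Sp1 DBD and Sp1 WT summits the median distance was 80 bp in matched members and 33 bp in the other matched peaks. For the EWS chimera it was 76 and 38 bp. A Sp1 DBD peak had its summit within 200 bp of the Sp1 WT summit in 237 members (48.7%, 44.3 to 53.1%), against 44.2% of all peaks. An EWS chimera peak did so in 215 (44.1%, 39.8 to 48.6%), against 31.4%. In the strongest 25% this held for 61.4% (55.3 to 67.1%) of members and 77.5% (74.9 to 80.0%) of the other peaks with the Sp1 DBD, whose intervals do not overlap. With the EWS chimera it held for 57.9% (51.8 to 63.8%) and 61.3% (58.3 to 64.2%).

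The V5 lists, which read endogenous Sp1, matched fewer members each. They are also shorter than the Sp1 DBD and EWS chimera lists, with 1332 to 2172 peaks. The part of list length in these counts was not tested. In the CTRL line rabbit anti-V5 matched 206 (42.3%), against 30.6% of all Sp1 WT peaks, and mouse anti-V5 209 (42.9%), against 29.6%. In the Sp1 WT line they matched 204 (41.9%), against 26.4%, and 182 (37.4%), against 21.1%. In the Sp1 IDR-LacI line they matched 229 (47.0%), against 32.8%, and 218 (44.8%), against 27.3%. In the Sp1 IDR-CTCF DBD line they matched 239 (49.1%), against 33.4%, and 197 (40.5%), against 22.2%. At least 1 of the 8 lists matched 317 (65.1%, 60.8 to 69.2%), against 46%. All 8 matched 86 (17.7%), against 12.5%. In the strongest 25% all 8 matched 29.7% (24.5 to 35.6%) of members and 43% (40 to 46%) of the other peaks, and these intervals do not overlap.

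**Figure D3:**
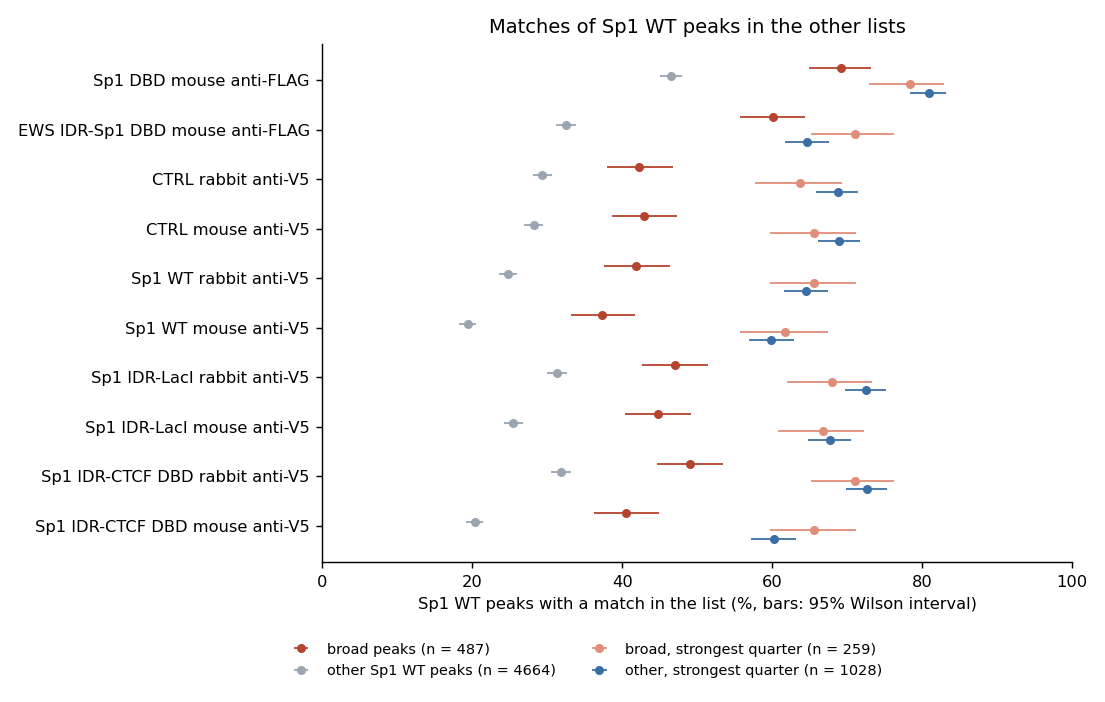
The share of Sp1 WT peaks with a match in each of the 10 other lists (%), for members, the other peaks and both within the strongest 25%, with bars for the 95% Wilson interval. Members lie to the right of the other peaks in every list, from 37.4% to 69.2%, and the intervals overlap in all lists within the strongest 25%.

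Taking the 10 lists at once, 49 members (10.1%) were matched in all, against 7.18%, and 48 (9.86%, 7.51 to 12.8%) in none, against 30.3%. Both the Sp1 DBD and the EWS chimera matched 236 (48.5%), against 28.8%, the Sp1 DBD without the EWS chimera 101 (20.7%), against 19.8%, and the EWS chimera without the Sp1 DBD 57 (11.7%), against 6.25%. A match in the Sp1 DBD or EWS list but in no V5 list was found for 122 (25.1%), against 23.7%. A match in a V5 list alone was found for 45 (9.24%), against 14.8%.

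The other anti-FLAG lists, those of CTRL cells without a FLAG tag and of the remaining transgenes, matched few members. The lengths of these lists are not given here. Peaks were found against merged control replicates, so few matches in the CTRL lists can follow from the peak finding. Members matched 0 of 487 in CTRL with mouse anti-FLAG (0% of all Sp1 WT peaks) and rabbit anti-FLAG (0.194%), in SNAPf-NLS (0.388%), in the Sp1 DBD Mutant (0.233%) and in LacI (0.214%), and a count of 0 allows a share of up to 0.616%. Sp1 IDR-LacI matched 1 (0.205%, against 0.777%), Sp1 IDR-CTCF DBD 11 (2.26%, against 1.42%) and CTCF DBD 20 (4.11%, against 3.88%).

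Matching peaks were mostly narrower than the Sp1 WT peak, least so for the Sp1 DBD. The members were chosen by the Sp1 WT width that the ratios below divide by, so narrower matches are partly built in. The widest Sp1 DBD match had a median of 1858 bp (269 to 8077 bp), or 0.87 of the Sp1 WT width, and was at least 1800 bp wide in 187 of 337 (55.5%). It was wider than the Sp1 WT peak in 51. The widest EWS chimera match had a median of 1481 bp (430 to 6716 bp), or 0.67 of the Sp1 WT width, and reached 1800 bp in 82 of 293 (28.0%), with 11 wider than Sp1 WT. For the other Sp1 WT peaks the median ratios were 0.87 and 0.77. The V5 matches had medians from 917 bp (Sp1 IDR-LacI, mouse) to 1202 bp (CTRL, mouse), with ratios from 0.40 to 0.54 against 0.50 to 0.64 for the other Sp1 WT peaks, and 9.22% to 23.4% reached 1800 bp. The lists themselves differ in width, with medians over all peaks of 941 bp for Sp1 WT, 926 bp for the Sp1 DBD, 823 bp for the EWS chimera and 558 to 669 bp for the V5 lists.

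Of the members' length, Sp1 DBD peaks covered 54.1% and EWS chimera peaks 38.8%, against 42.7% and 27.3% of the length of the other peaks. Each V5 list covered between 19% and 24.6% of the members' length and between 12.3% and 21.3% of that of the other peaks. With rabbit anti-V5 in the CTRL line the order was turned, at 19% and 19.7%. Together the 8 V5 lists covered 40.1% of the members' length and 33.0% of that of the other peaks. For the other peaks of the strongest 25% this share was 61.5%. It was not computed for the members of the strongest 25%. Broad peaks of the other lists did not all lie over members: in the Sp1 DBD list 335 reached 1800 bp, of which 186 overlapped a member, 41 only a narrower Sp1 WT peak and 108 none. Of the 121 such EWS chimera peaks the numbers were 82, 8 and 31.

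**Figure D4:**
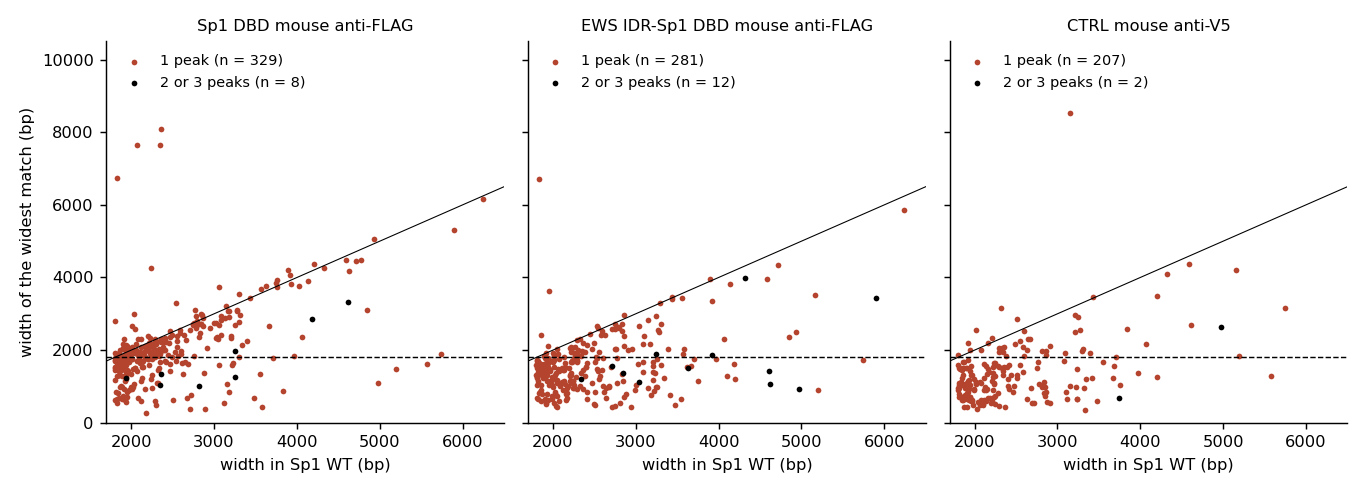
The width of the widest matching peak (bp) against the width in Sp1 WT (bp) for the matched members in the Sp1 DBD, EWS chimera and CTRL mouse anti-V5 lists, with equal widths on the solid line, 1800 bp dashed and members matched by several peaks in black. Sp1 DBD points gather along the solid line (median ratio 0.87), EWS points lie below it (0.67) and V5 points lower still (0.54); the highest points in the first panel are 45S ribosomal RNA sequence.

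Splitting was rare. The Sp1 DBD matched 329 members with 1 peak and 8 (1.64%) with several, against 0.194% of all Sp1 WT peaks. The EWS chimera matched 281 with 1 peak, 10 with 2 and 2 with 3, so that 12 (2.46%) were split, against 0.291%. In at least 1 V5 list 25 (5.13%) were split, against 0.602%. When pieces had to be at least 200 bp wide and 200 bp apart, 4 members were split by the Sp1 DBD (0.821%, against 0.116%) and 14 in a V5 list (2.87%, against 0.349%). The rabbit V5 lists split 9, 11, 12 and 5 members and the mouse lists 2, 3, 3 and 6, in the order of lines above. In all, 38 members were split in at least 1 list, and the gap between pieces had a median of 249 bp (5 to 2339 bp). A wide window can hold several peaks where a narrow one cannot, so the background is no like for like measure.

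The 8 members split by the Sp1 DBD were CASP9/DNAJC16, LDB1, ACTR1A/SUFU, MAP3K11/PCNX3, CFL1/MUS81, RRAS/SCAF1, PFKFB4 and a peak near LMTK3, with gaps of 165 to 255 bp. The 12 split by the EWS chimera included S100A10, CKS1B/SHC1, MPP2, CDKN2D/KRI1, NOSIP/PRR12, RRAS/SCAF1, XPO1, PDLIM7, FOXO3 and a peak near GALNT9. RRAS/SCAF1, a Ras-related GTPase gene and a splicing-related gene read in opposite directions, was the only member on both lists. In Sp1 WT it was 1 peak of 4611 bp at chr19:49637834-49642444 (rank 307, replicate peaks 4611 and 4584 bp). In the Sp1 DBD list it was 2 peaks of 3324 and 969 bp, 255 bp apart. In the EWS chimera list it was 3 peaks of 1233, 1419 and 753 bp. The V5 lists matched its right-hand part, where both starts and the 19 boxes lie, with peaks up to 2718 bp wide in 7 of 8 lists.

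NOSIP/PRR12 was 4626 bp wide in Sp1 WT and 4172 bp in the Sp1 DBD list. The EWS chimera list held 3 peaks of 797, 1077 and 400 bp in its place, with gaps of 108 and 129 bp. They ranked 1002, 1972 and 2523 in that list of 2535 peaks, with −log10 p-values of 18.4, 12.2 and 9.94. The Sp1 DBD peak ranked 630 in its own list, at 27.8. CKS1B/SHC1 was a single Sp1 DBD peak of 5302 bp and 2 EWS chimera peaks of 3445 and 1563 bp, 209 bp apart. CDKN2D/KRI1, where CDKN2D encodes a CDK4 and CDK6 inhibitor, was 3628 bp wide in Sp1 WT and 3752 bp in the Sp1 DBD list, but 2 EWS chimera peaks of 1522 and 648 bp lay 1136 bp apart. At NOSIP/PRR12 and CDKN2D/KRI1 the EWS chimera peaks covered only part of the region that the Sp1 WT and Sp1 DBD peaks covered. The part of peak strength in this was not tested. At CKS1B/SHC1 the EWS chimera covered 84.9% of the Sp1 WT peak and the Sp1 DBD 89.9%.

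CCDC12/NBEAL2 came apart in the lists of endogenous Sp1. It was 3748 bp wide in Sp1 WT (rank 1180) and 3848 bp in the Sp1 DBD list, with 1 EWS chimera peak of 1142 bp. In 7 of the 8 V5 lists it was a pair of small peaks, from 324 to 940 bp wide, with 1526 to 2262 bp between them. MTMR4, at 5194 bp, was matched by a Sp1 DBD peak of only 1485 bp and an EWS chimera peak of 902 bp, and 2 rabbit V5 lists held a pair of peaks there 2339 and 1897 bp apart.

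**Figure D5:**
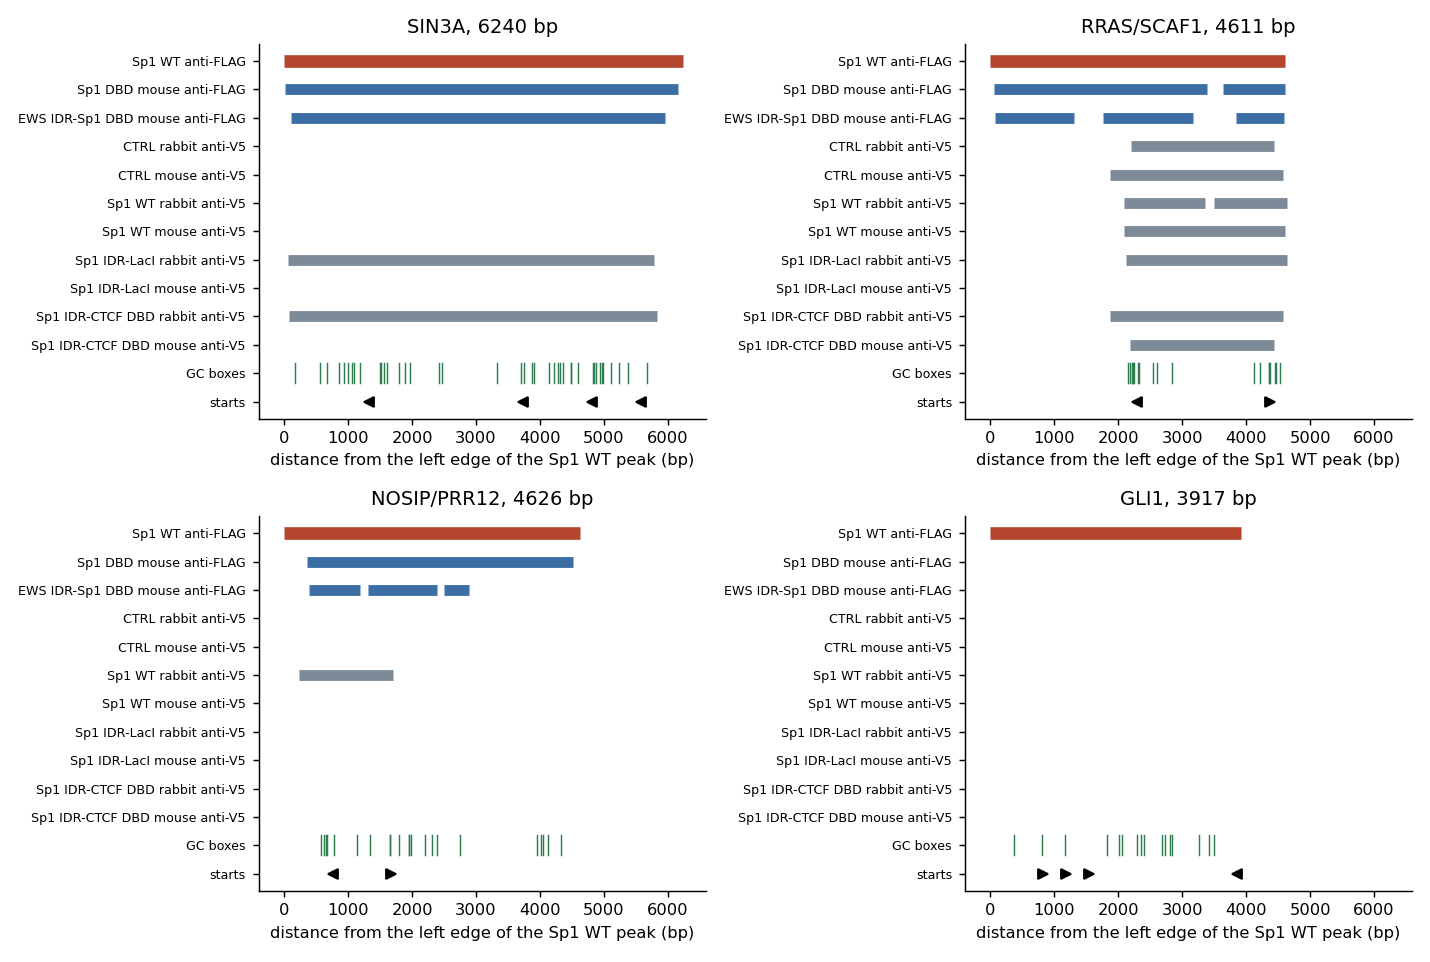
Peaks at 4 loci, as bars by distance from the left edge of the Sp1 WT peak (bp), with Sp1 WT in red, the Sp1 DBD and EWS chimera in blue and the 8 V5 lists in grey. Green ticks are GC boxes and arrowheads are separate starts with their direction. SIN3A is a whole peak in 4 other lists, RRAS/SCAF1 and NOSIP/PRR12 come apart in the EWS chimera list, and GLI1 has no match.

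At SIN3A the width was nearly the same wherever there was a peak: 6150 bp in the Sp1 DBD list, 5845 bp in the EWS chimera list, and 5726 and 5759 bp with rabbit anti-V5 in the Sp1 IDR-LacI and Sp1 IDR-CTCF DBD lines. The other 6 V5 lists held no peak there. A list holds only peaks that passed the IDR threshold, so a missing peak does not show that there was no signal. NAB2/NEMP1 was 4445 bp wide in the Sp1 DBD list and 4344 bp in the EWS chimera list. SOX12 and KDM6B were wide in the Sp1 DBD list (4473 and 3774 bp) without an EWS chimera peak, as was KLF13 (3926 bp). The reverse held for KIFC2/TMEM276/ZFTRAF1, with an EWS chimera peak of 3531 bp and no Sp1 DBD peak. KLF10 was wide in both, at 3538 and 3295 bp. MYC had matches of 1967 and 1793 bp and no V5 match.

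Of the 487 members, 251 were at least 1800 bp wide in none of the 10 lists and 133 in 1, and 3 were so in all 10. These 3 were EOLA2 (2214 bp in Sp1 WT and 2061 to 2338 bp elsewhere), CLPTM1L (3249 bp, 2689 to 2999 bp) and SERTAD3, a transcriptional coregulator gene (2492 bp, 2079 to 2430 bp). At CLPTM1L 64.7% of the words around the summit are repeated in hg38, at EOLA2 14.1% and at SERTAD3 0%. ENSG00000268120 (4587 bp) and a peak near FGFR3P6 (3434 bp) were so in 9 lists, with 63.5% and 100% repeated words, and SLC17A7 (3272 bp), a vesicular glutamate transporter gene, in 8 with 0%.

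The 48 members with no match ranked from 539 to 5146 with a median of 3319, and 5 were in the strongest 25%. No match means that no peak was kept in these lists, not that there was no signal. Of these 48, 31 held 2 or more starts and 19 held at least 10 GC boxes. The widest was GLI1, a transcription factor gene of Hedgehog signalling, at chr12:57458955-57462871 (3917 bp, replicate peaks 3808 and 3917 bp, rank 2212, 16 boxes). It was followed by SGMS1, a sphingomyelin synthase gene (3201 bp, rank 4431), RASSF3 (3067 bp, rank 4839), ANO8/GTPBP3 (2977 bp, rank 4402), YWHAZ, a 14-3-3 protein gene (2968 bp, rank 1892), and LFNG, a glycosyltransferase gene of Notch signalling (2925 bp, rank 3847). In these 6 both replicate peaks were wide, between 2805 and 3917 bp. Within the strongest 25% 1.93% of members and 2.43% of the other peaks had no match.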

How the data were processed

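Libraries were made by CUT&RUN with protein A/G-MNase after digitonin permeabilisation. Per the study's methods, the authors used Cutadapt 2.6 for trimming, Bowtie2 2.3.5.1 for alignment (hg38) and SAMtools 1.9 for the removal of duplicates, and found peaks against the merged control replicates with MACS3 (version given as 2.2.7.1, p threshold 1e-3, no local lambda). They merged the 2 replicates of each of the 19 lists by their irreproducible discovery rate (IDR), keeping peaks at 0.1 or below. The deposited lists give −log10 p-values for the merged peak and each replicate peak, and the IDR as a score. Whether blacklisted regions were removed from the lists is not given in the sources used here. The 6 deposited tables of differential regions hold the authors' own comparisons as log10 likelihood ratios and were not used.

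The study gives read numbers per library, which were not used here, and the peak lists hold none. Width was end minus start, and peaks sharing at least 1 bp matched. Starts were those of GENCODE 44 transcripts (hg38), joined per strand within 100 bp; sequences outside the main chromosomes carry no annotation there. GC boxes were counted on both strands. Intervals are 95% Wilson intervals over peaks, and a count of 0 was given an upper limit of 3 counts. No p-value was computed, because a list has no replicates. Named peaks were the 12 widest, the 4 nearest the limit on each side, the 6 with most GC boxes, most starts and most pieces in the Sp1 DBD and EWS lists, the 6 widest without a match, the 6 broad in most lists and up to 4 per gene class, of which some are not reported here. Other peaks were named after their values were seen, as the members of a small count or of a cluster. The members and lists were chosen with earlier results of these data known. Python 3.11.15, pandas 2.3.3, NumPy 2.4.6, SciPy 1.17.1, pysam 0.24.0 and bedtools 2.31.1 were used, and the scripts were tested on simulated data. Alternatives changed the width limit, the replicate peak, the IDR threshold, list length, repeats, the gap between pieces and the start and box definitions.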

Additional observations from a re-analysis of the deposited data

How the results depend on the processing

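Of 55 alternatives, 39 left their result within its range, 15 moved it and 1 reversed it. The number of members, 487, rose to 891 with a limit of 1500 bp and fell to 260 when both replicate peaks had to reach 1800 bp. With only 1 replicate peak measured it ranged from 272 to 464. At an IDR of at most 0.01 in the other lists, matches fell from 69.2% to 49.5% for the Sp1 DBD, from 60.2% to 30.0% for the EWS chimera and from 65.1% to 51.3% for at least 1 V5 list. At 0.05 they were 50.3% for the EWS chimera and 60.2% for V5. When pieces had to be at least 200 bp wide and 200 bp apart, the Sp1 DBD split 4 members in place of 8 and the V5 lists 14 in place of 25. With every list cut to its 1332 strongest peaks, the covered length fell from 54.1% to 41.1% (Sp1 DBD), from 38.8% to 29.1% (EWS chimera) and from 40.1% to 34.7% (the 8 V5 lists together). Counting gene starts in place of transcript starts, 37.8% of members in place of 72.9% held 2 or more. The ratio of median GC boxes in members to that in other peaks, 2.5 per peak, became 0.92 per 1000 bp, because the latter divides by the width. With 1 separate start, chosen after seeing the data, 52.6% of members in place of 69.8% reached farther downstream. No paired analysis was possible because no result comes from a test, and the lists do not say which labelled replicate gave which replicate peak. Depth that was not used, 1 list per group and copies of repeated sequence limit what the widths show. The rules for a closer look at single values were not applied, since no group held 4 or more values.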
